A study of Saccharomyces cerevisiae with 8 samples.

Results

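Cryptic unstable transcripts (CUTs) are short noncoding RNAs of budding yeast that are made by RNA polymerase II, often from the nucleosome-free regions at gene ends. In wild-type cells most of them are terminated early by the Nrd1-Nab3-Sen1 complex, given a short poly(A) tail by the TRAMP complex and degraded by the nuclear exosome, in which Rrp6 is the nuclear-specific exonuclease. Copies that reach the cytoplasm can meet Xrn1, the 5′ to 3′ exonuclease, and nonsense-mediated decay (NMD), which depends on translation and on the helicase Upf1. The CUTs described here are all features named CUT followed by a number in the table of normalized densities. There are 925 of them among 11966 features, and 1645 XUTs (Xrn1-sensitive transcripts), 845 SUTs (stable unannotated transcripts) and 1525 NUTs (Nrd1-terminated transcripts) stand beside them.

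The libraries are strand-specific and were made after removal of ribosomal RNA from total RNA of Saccharomyces cerevisiae BY4741, which is haploid, of mating type a and carries deletions of HIS3, LEU2, MET15 and URA3, grown in rich medium. All 4 groups share this background. The wild type (WT) and a upf1 mutant, in which kanMX4 replaces the UPF1 gene (NAM7), each received DMSO or the translation elongation inhibitor anisomycin (ANS) at 100 µg/ml for 30 min, with 2 biological replicates per group. NAM7 in upf1 stood at 2.39% of its WT density in DMSO and at 1.60% under ANS. The a-cell markers MFA1, MFA2, STE2 and BAR1 all had densities of 0.756 or more in each library, while the alpha-factor genes MF(ALPHA)1 and MF(ALPHA)2 stayed at or below 0.0206 and STE3 between 0.00208 and 0.137.

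CUTs were rare in every library. The reads recovered from the densities gave WT CUTs 6161 and 9669 reads with DMSO and 11183 and 12537 with ANS, and upf1 CUTs 12294 and 15039 reads with DMSO and 17715 and 22996 with ANS, of 6954353 to 11994371 reads per library. A single CUT had a median of 60 reads over the 8 libraries together, and 305 of the 925 CUTs never reached 10 reads in any library. A total of 735 were read in all libraries and 2 in none. The 10 most-read CUTs held 18.9% of all 107594 CUT reads. Reads are not corrected for PCR copies, and values for most single CUTs rest on few of them.

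CUT lengths recovered with the reads ran from 105 to 3433 nt, with a median of 377 nt. Of the 923 CUTs with a read, 893 (96.7%) had a length that is a multiple of 8 plus 1. For 42 CUTs the reads shared a common divisor, so that their length and reads may be a multiple of the values found. Some CUTs overlap other annotated noncoding RNAs: of the 539 CUTs with 50 or more reads, 8 had exactly the reads of an XUT in all libraries and 6 those of a NUT. The table gives neither the position nor the strand of a CUT. Its rows follow the chromosomes, which places each CUT between the annotated genes listed before and after it. The numbers fall into a pair of ascending runs along the genome, CUT001 to CUT435 and CUT436 to CUT925. Gene coordinates below are those of the R64 annotation.

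The typical CUT became more abundant with ANS in both strains. Its median density rose from 0.00622 and 0.00781 in the WT DMSO replicates to 0.0256 and 0.0310 in WT ANS, and from 0.00964 and 0.0101 in upf1 DMSO to 0.0343 and 0.0330 in upf1 ANS. All 4 ANS libraries lay above all 4 DMSO libraries. The deposited densities hold small nucleolar RNAs (snoRNAs) level between libraries, and on that scale protein-coding genes rose too, from a median of 0.142 ± 0.00118 (SD, n = 2) in WT DMSO to 0.522 ± 0.0885 in WT ANS. In bulk samples, fewer cells of a type and less RNA per cell cannot be told apart, and neither can more RNA per cell and less snoRNA. Changes are therefore given both on the deposited scale and relative to protein-coding genes, where the median protein-coding gene is set level across the libraries.

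**Figure D1:**
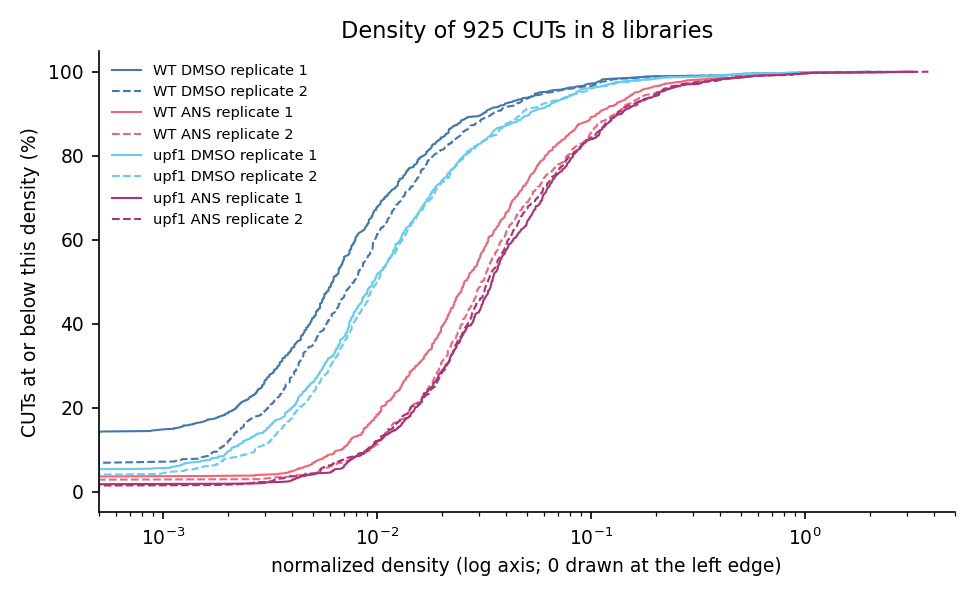
Cumulative share of the 925 CUTs (y axis, %) at or below each normalized density (x axis, log) in each of the 8 libraries, with solid lines for replicate 1 and dashed lines for replicate 2. The 4 ANS curves lie to the right of the 4 DMSO curves over most of their length and meet them among the most abundant CUTs.

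Set against the median protein-coding gene, the median CUT moved little. In WT it was 4.41% and 5.46% with DMSO and 5.57% and 5.31% with ANS, so that WT DMSO replicate 2 lay between both ANS values. In upf1 it was 5.19% and 5.98% with DMSO and 6.18% and 6.62% with ANS, with the ANS libraries above the DMSO libraries. The group means were 4.94 ± 0.75% in WT DMSO, 5.44 ± 0.19% in WT ANS, 5.59 ± 0.56% in upf1 DMSO and 6.40 ± 0.31% in upf1 ANS (SD, n = 2 each). XUTs spanned a wider range, from 4.48 ± 0.30% in WT DMSO to 7.61 ± 0.27% with ANS in that strain and to 9.76 ± 0.39% in upf1 DMSO, and SUTs went from 6.17 ± 0.36% to 9.14 ± 0.15% and 14.5 ± 0.7% in the same order. Summed over all CUTs, density came to 0.526 ± 0.052% of the protein-coding sum in WT DMSO, 0.693 ± 0.029% in WT ANS, 0.678 ± 0.049% in upf1 DMSO and 0.838 ± 0.026% in upf1 ANS. These levels are descriptions and were given no test.

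**Figure D2:**
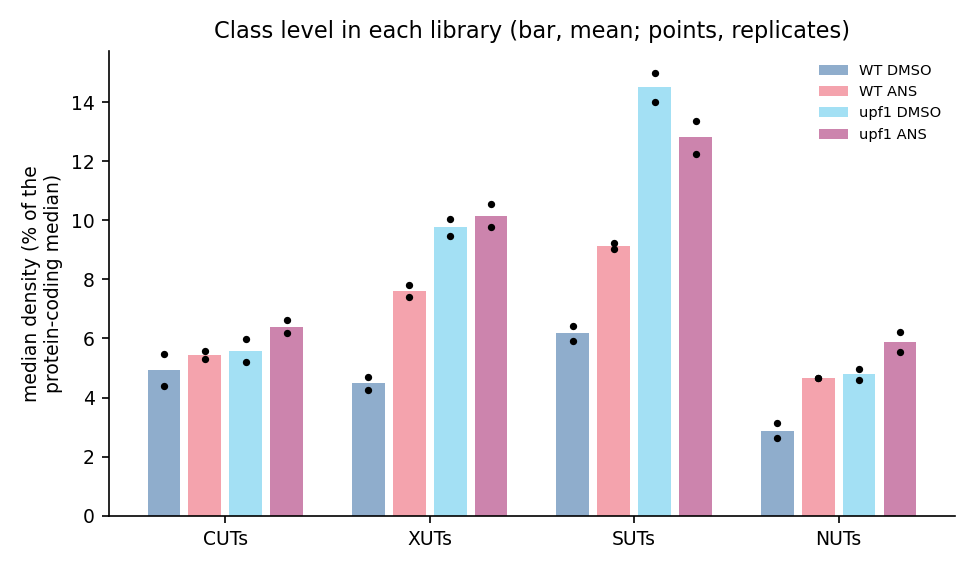
Median density of CUTs, XUTs, SUTs and NUTs as a percentage of the protein-coding median (y axis), with bars for the group means and points for the 2 replicates. The CUT bars run from 4.94% to 6.40%, while the SUT bars run from 6.17% to 14.5%.

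ANS in WT raised 712 of 898 tested CUTs on the deposited scale and lowered 4 (limma, adjusted p under 0.05), with a median log2 change of 1.57. With the pseudocount added before the log2 raised 5 times that median was 0.88 (1.30 over all features), and with it divided by 5 it was 1.95 (1.97). Of all 11579 tested features 90.2% rose and 0.345% fell, with a median of 1.77, so the CUT share of 79.3% lay below the background. With protein-coding genes set level, 209 CUTs rose and 89 fell (23.3% and 9.91%), against 35.8% and 19.3% of all features, and the median was 0.28 for CUTs and 0.28 for all features. Without WT DMSO replicate 1 these medians were 0.11 and 0.24, and at 5 times the pseudocount 0.14 and 0.20. Without WT ANS replicate 1, 129 CUTs rose on this scale. Without WT ANS replicate 2, the falls on the deposited scale numbered 10. The share called grew with abundance: in the lowest of 4 equal density groups, with a median of 26.0 reads per CUT, 57.8% rose on the deposited scale, and in the highest group, with 147 reads, 87.1% did. At matched density XUTs had larger medians, 2.49 against 1.80 for CUTs in the highest group and 1.22 against 1.11 in the lowest, with no test of that difference. The density groups rest on the mean of all 8 libraries, so a rise itself moves a feature to a higher group.

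CUT526 had the largest rise in WT of the CUTs above median abundance. Abundance here is the mean density over all 8 libraries, those with ANS included. A CUT that is low in DMSO can pass this limit through its ANS libraries, so its rise is part of how it was picked. This holds for all CUTs named below for a rise with ANS. It is 121 nt long and is listed on chromosome IV between SDH6 (1233278 to 1233517), an assembly factor of succinate dehydrogenase, and ARO10 (1234218 to 1236125), the phenylpyruvate decarboxylase that makes fusel alcohols from amino acids. In WT its density went from 0.0158 and 0.0342 with DMSO (8 reads) to 0.764 and 0.795 with ANS (114 reads). In upf1 it was already 0.204 and 0.173 with DMSO and reached 1.06 and 1.03 with ANS. The 4 groups did not overlap, and WT DMSO stood far below the other groups. The log2 rise with ANS in WT was 4.87 ± 0.27 (SE, adjusted p = 7.6e-07) on the deposited scale and 3.26 ± 0.29 (adjusted p = 0.00013) relative to protein-coding genes. ARO10 itself went from 0.25 and 0.223 to 8.42 and 11.3 with ANS in WT, and SDH6 from 0.0719 and 0.0714 to 0.833 and 0.848.

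CUT641 (409 nt, chromosome VIII) is listed between YSC83 and ARG4 (140011 to 141402), which encodes argininosuccinate lyase of arginine synthesis. Its density rose from 0.00467 and 0.00674 in WT DMSO to 0.175 and 0.264 in WT ANS, and in upf1 from 0.0134 and 0.00426 to 0.194 and 0.181. Both strains overlapped in DMSO as well as under ANS, unlike for CUT526. The log2 rise was 4.60 ± 0.36 in WT and 4.07 ± 0.36 in upf1 on the deposited scale, and 3.19 ± 0.36 and 2.80 ± 0.36 relative to protein-coding genes (adjusted p = 0.00036 and 0.0011). ARG4 rose by 4.20 in WT and 3.86 in upf1 on the deposited scale.

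CUT480 (793 nt, chromosome IV) lies in the table between RGT2, a glucose sensor, and ARF2, a small GTPase of vesicle formation. Its WT reads numbered 26 with DMSO and 266 with ANS. In WT the density was 0.00963 and 0.0157 with DMSO and 0.265 and 0.29 with ANS, in upf1 it was 0.0647 and 0.0601 with DMSO and 0.484 and 0.387 with ANS, and no groups overlapped. It rose by 4.16 ± 0.22 with ANS in WT (2.62 ± 0.20 relative to protein-coding genes). ARF2 changed by -0.28 on the deposited scale and fell by 1.98 relative to protein-coding genes, so this CUT and the gene after it went apart.

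Several CUTs with large rises started from almost no reads, so that their fitted changes depend on the pseudocount and only their densities are given here. CUT872, between REV1 and PYK2 on chromosome XV, had densities of 0.0088 and 0 in WT DMSO (2 reads) and 0.11 and 0.134 in WT ANS (32 reads). CUT271, between STT4 and UBC12 on chromosome XII, had no read in WT DMSO and densities of 0.0377 and 0.0369 in WT ANS (21 reads). CUT574, between FRS2 and GAT1 on chromosome VI, also had no read in WT DMSO, but only 6 reads in WT ANS, and it is among the CUTs whose reads share a divisor. For all of these the DMSO libraries lay below both ANS libraries of the same strain. The rule for naming CUTs requires this in the comparison for which a CUT is named.

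Few CUTs fell with ANS on the deposited scale. CUT314 (249 nt, chromosome XIV, between the G1 cyclin gene PCL1 and CAF40 of the Ccr4-Not complex) went from 0.107 and 0.111 in WT DMSO to 0.0704 and 0.0414 in WT ANS, and from 0.088 and 0.154 in upf1 DMSO to 0.0638 and 0.0522 in upf1 ANS. DMSO and ANS did not overlap in either strain, which the rule for naming CUTs requires. The log2 change was -0.97 ± 0.30 in each strain (adjusted p = 0.012) and relative to protein-coding genes -2.58 ± 0.37 in WT and -2.38 ± 0.37 in upf1. Both genes beside it rose, PCL1 by 2.95 and CAF40 by 2.02 in WT on the deposited scale. The call for CUT314 on the deposited scale was lost in WT without WT ANS replicate 2, and in upf1 without upf1 DMSO replicate 2 or upf1 ANS replicate 2.

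CUT226 (161 nt, chromosome XI, between TRP3 and the ubiquitin-activating enzyme gene UBA1) had 0.166 and 0.18 in WT DMSO and 0.109 and 0.128 in WT ANS, a change of -0.54 ± 0.18 (adjusted p = 0.018). In upf1 it had 0.14 and 0.159 with DMSO and 0.115 and 0.0932 with ANS. It changed relative to protein-coding genes by -2.20 ± 0.13 in WT and -1.95 ± 0.13 in upf1. On the deposited scale the WT call was lost without WT DMSO replicate 2 or WT ANS replicate 1, and the upf1 call without upf1 DMSO replicate 2 or upf1 ANS replicate 2. CUT150 (129 nt, chromosome VII, between SPR3 and the sterol oxidase gene ERG25) had 0.0962 and 0.0909 in WT DMSO and 0.0494 and 0.0532 in WT ANS, a change of -0.83 ± 0.26 (adjusted p = 0.011). In upf1 it stood at 0.0743 and 0.135 with DMSO and 0.113 and 0.109 with ANS, and these groups overlapped. The other CUT that fell in WT, CUT789, had only 7 reads in all and was looked up after its values were seen.

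The 8 CUTs with the highest mean density over all libraries, those with ANS included, differed in their response to ANS. CUT015 (481 nt, chromosome II, between TCM62 and GIP1) had densities in WT of 0.905 and 0.95 with DMSO and 0.951 and 0.996 with ANS, and in upf1 of 0.807 and 0.833 with DMSO and 0.828 and 0.917 with ANS. CUT628 (145 nt, chromosome VII, beside the glyceraldehyde-3-phosphate dehydrogenase gene TDH3) had 0.494 and 0.495, 0.506 and 0.497, 0.571 and 0.501, and 0.539 and 0.579 in the same order. CUT894 (177 nt, chromosome XVI, beside the Hsp110 gene SSE1) had 0.572 and 0.561, 0.504 and 0.524, 0.565 and 0.519, and 0.561 and 0.475. None of these 3 CUTs passed the test with ANS in WT on the deposited scale, where their changes were 0.07 ± 0.13, 0.02 ± 0.14 and -0.14 ± 0.14. CUT567 (beside the phosphatase gene GLC7) and CUT496 (beside the triosephosphate isomerase gene TPI1) did not pass it either, with 0.52 ± 0.24 and 0.14 ± 0.20 (adjusted p = 0.063 and 0.53). CUT526, CUT484 (between the ribosomal protein genes RPL13A and RPP1A, 0.63 ± 0.13) and CUT787 (beside the ribosomal protein gene RPL20A, 0.74 ± 0.14) rose.

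The same CUTs fell relative to protein-coding genes, with changes of -1.63 for CUT015, -1.67 for CUT628 and -1.83 for CUT894 in WT (adjusted p = 7.5e-05, 7.6e-05 and 2.8e-05). The genes listed after CUT628 and CUT894 gave like values, -1.78 for TDH3 and -1.88 for SSE1. GIP1, the gene after CUT015, rose instead by 1.93 on that scale. Of the 8 most abundant CUTs, CUT567, CUT484, CUT496 and CUT787 also fell relative to protein-coding genes in WT, with changes of -0.95 to -1.56. CUT526 was the only one of these 8 that rose on that scale. Being low in WT DMSO, it has its place among the 8 through its ANS libraries, so its rise is part of how it was picked. The CUTs nearest to the median density were CUT183, CUT239 and CUT273, with changes of 0.96 ± 0.23, 1.22 ± 0.26 and 0.57 ± 0.40 relative to protein-coding genes, of which the first and second passed the test.

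**Figure D3:**
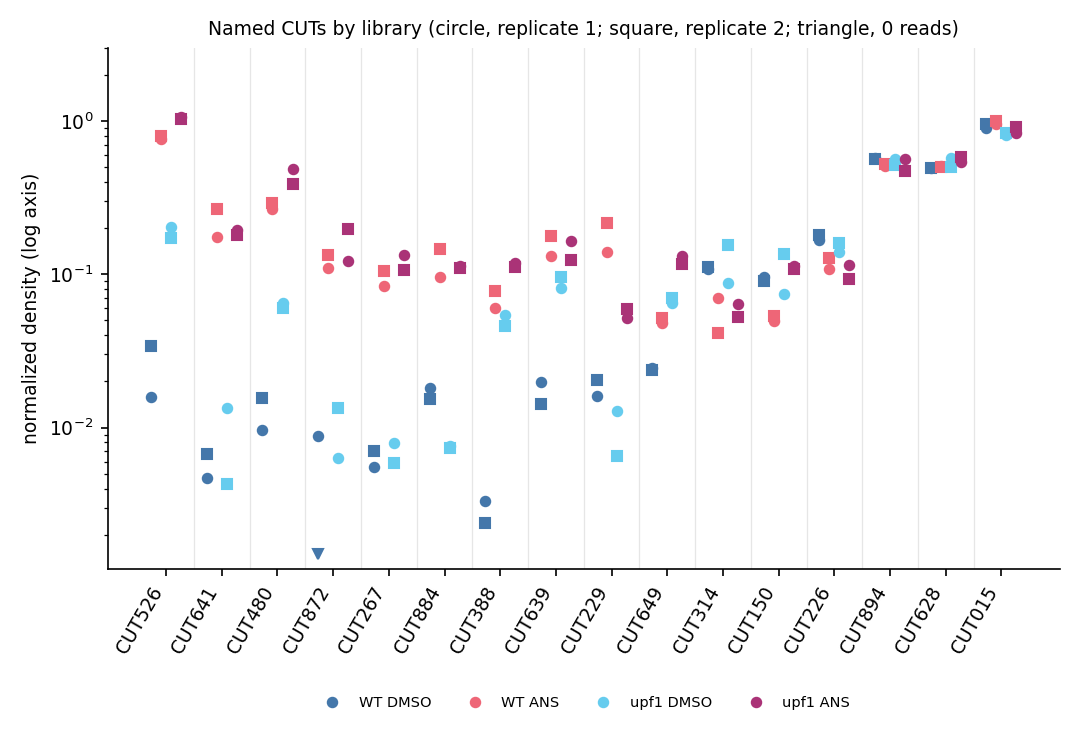
Normalized density (y axis, log) of 16 named CUTs in the 8 libraries, coloured by group, with circles for replicate 1, squares for replicate 2 and a triangle at the bottom for 0 reads. CUT526, CUT480 and CUT388 have WT DMSO as their lowest group by far, while CUT894, CUT628 and CUT015 at the right lie at nearly 1 level in all groups.

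ANS in upf1 raised 720 CUTs and lowered 3 on the deposited scale, with a median of 1.38, against 88.7% and 0.268% of all features and a median of 1.37. With protein-coding genes set level, 97 rose and 50 fell, against 17.4% and 18.3% of all features, with a median of 0.16 against 0.02. The CUT median was 0.07 without upf1 DMSO replicate 1 (-0.01 over all features) and 0.09 at 5 times the pseudocount (0.01). Fewer rose relative to protein-coding genes when a upf1 library was left out: 49 without upf1 DMSO replicate 1, 39 without upf1 ANS replicate 1 and 34 without upf1 ANS replicate 2. The falls on this scale numbered 24 without upf1 DMSO replicate 2, 20 without upf1 ANS replicate 1 and 31 without upf1 ANS replicate 2. None fell on the deposited scale without upf1 DMSO replicate 2 and 1 fell without upf1 ANS replicate 2.

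CUT267 (689 nt, chromosome XII, between NEJ1 of end joining and the transcription factor gene PDR8) went from 0.00795 and 0.00591 to 0.133 and 0.106 in upf1, and in WT from 0.00554 and 0.007 to 0.0833 and 0.105. Strains overlapped in DMSO, and ANS stood above DMSO in both. The log2 rise relative to protein-coding genes was 2.30 ± 0.19 in upf1 and 1.92 ± 0.19 in WT. CUT884 (633 nt, chromosome XVI, between FLC1 and the ribosomal protein gene RPL1A) went from 0.00757 and 0.00735 to 0.113 and 0.109 in upf1, and in WT from 0.0181 and 0.0152 to 0.0957 and 0.146. Its rise relative to protein-coding genes was 2.12 ± 0.18 in upf1 and 1.05 ± 0.18 in WT, while RPL1A changed by -0.92 and -1.17.

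The ANS comparisons in WT and upf1 share no library and can be set against each other. A total of 642 CUTs rose in both on the deposited scale, 90.2% of those that rose in WT and 89.2% of those that rose in upf1, where 79.3% of all tested CUTs rose in WT and 80.2% in upf1. On the protein-coding scale 62 rose in both, 29.7% of the WT list and 63.9% of the upf1 list, and 36 fell in both, 40.4% and 72.0%. Of all tested CUTs 23.3% rose and 9.91% fell in WT on that scale, and 10.8% and 5.57% in upf1. Across the 539 tested CUTs with 50 or more reads, the log2 changes relative to protein-coding genes had a Pearson r of 0.66 and a Spearman rho of 0.58. These CUTs share libraries, and the value is a description. The overlaps were not counted over all features, so nothing particular to CUTs is read from them. Relative to protein-coding genes 4 CUTs rose in WT and fell in upf1: CUT440, CUT546, CUT639 and CUT850, of which CUT440 had 11 reads in all. CUT440, CUT546 and CUT850 were named after their values were seen.

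CUT546 (904 nt, between RML2 and PAU2) had 1454 reads and was the best measured of them. The WT densities were 0.0264 and 0.0480 with DMSO and 0.196 and 0.241 with ANS, and those of upf1 were 0.216 and 0.2 with DMSO and 0.353 and 0.322 with ANS. WT DMSO lay far below the rest, and upf1 DMSO overlapped WT ANS on the deposited scale. Relative to protein-coding genes upf1 DMSO lay above WT ANS without overlap. It rose relative to protein-coding genes by 0.87 with ANS in WT and fell by 0.78 in upf1.

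**Figure D4:**
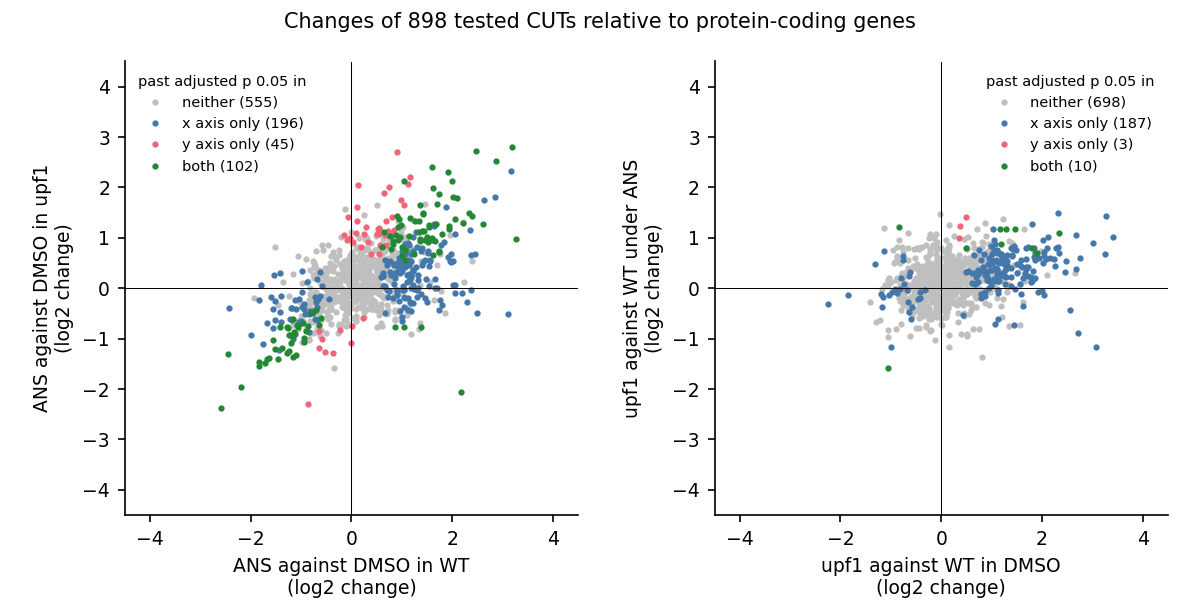
Log2 changes of the 898 tested CUTs relative to protein-coding genes, with ANS in WT (x) against ANS in upf1 (y) on the left and upf1 against WT in DMSO (x) against the same under ANS (y) on the right. Colours mark which comparison passed adjusted p 0.05, with counts in the legends. The ANS changes run along the diagonal, and the upf1 changes in DMSO reach 3 log2 units to the right with few points past the test under ANS.

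Loss of Upf1 raised a minority of CUTs in DMSO. On the deposited scale 164 of 898 rose and 2 fell (18.3% and 0.223%), against 31.6% and 0.613% of all features, with a median of 0.30 against 0.32. With protein-coding genes set level, 167 rose and 30 fell, against 30.9% and 16.4% of all features, with a median of 0.15 against 0.14 (-0.13 over protein-coding genes). That CUT median moved with single libraries: it was 0.03 without WT DMSO replicate 1 (0.10 over all features), 0.26 without WT DMSO replicate 2 (0.17) and 0.26 without upf1 DMSO replicate 1 (0.18), so that its side of the median over all features changed. XUTs and SUTs rose far more often on the deposited scale, 958 of 1603 XUTs with a median of 1.09 and 533 of 809 SUTs with a median of 1.21, as did 509 of 1448 NUTs with a median of 0.55. Without upf1 DMSO replicate 1, 97 CUTs rose on the deposited scale, and without upf1 DMSO replicate 2, 106 did. The numbers relative to protein-coding genes were 110 and 101, and the falls numbered 13 without upf1 DMSO replicate 1 and 17 without either upf1 ANS library. The 2 falls on the deposited scale became 3 to 5 without any 1 of the DMSO or WT ANS libraries.

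CUTs with more reads were called more often, from 4.0% in the lowest of the 4 density groups to 12.5%, 24.6% and 32.0% in the higher ones. Medians were 0.08, 0.32, 0.41 and 0.38. XUTs of the same density ranges rose in 27.3%, 44.4%, 56.9% and 79.4% of cases, with medians of 0.64, 0.79, 1.01 and 1.61. The XUTs also had more reads, with medians of 34.0, 68.0, 114 and 327 against 26.0, 52.0, 77.5 and 147 for CUTs. The density groups rest on the mean of all 8 libraries, so a rise itself moves a feature to a higher group. The part of reads and of this grouping in the difference was not tested. Among CUTs with 10 or more reads in a library, split into 3 groups by length, the longest (553 nt and over) had a median of 0.49 and the shortest (up to 320 nt) 0.32. The longest also had more reads, a median of 115 against 83.0, and the part of depth in this difference was not tested.

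CUT526 and CUT480, described above, were both far higher in upf1 than in WT in DMSO, by 2.83 ± 0.27 and 2.06 ± 0.22 on the deposited scale and by 2.67 ± 0.29 and 1.94 ± 0.20 relative to protein-coding genes. CUT388 (289 nt, chromosome XV, between GAC1, a regulatory subunit of protein phosphatase Glc7, and SYC1) had 0.0033 and 0.00239 in WT DMSO, from 2 reads, and 0.0545 and 0.0463 in upf1 DMSO, from 46 reads. Under ANS it had 0.0607 and 0.0772 in WT and 0.119 and 0.111 in upf1. On the deposited scale it thus reached in upf1 DMSO nearly the density of WT ANS, without overlap. Relative to protein-coding genes the order is reversed, with upf1 DMSO above WT ANS. The log2 factors by which libraries are divided on that scale were -0.60 and -0.72 in upf1 DMSO and 0.62 and 0.97 in WT ANS. CUT639 (193 nt, chromosome VIII, between the sterol demethylase gene ERG11 and YHR007C-A) had 0.0198 and 0.0143 in WT DMSO, 0.0816 and 0.0964 in upf1 DMSO, 0.132 and 0.178 in WT ANS and 0.165 and 0.124 in upf1 ANS. Its upf1 change in DMSO was 2.19 ± 0.24 (adjusted p = 9.4e-05), and both strains overlapped under ANS.

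CUT540 (between FIT1 and STL1 on chromosome IV), CUT185 (between SOA1 and YIL165C on chromosome IX) and CUT916 (between NOC4 and the asparagine synthetase gene ASN1 on chromosome XVI) also rose with loss of Upf1, but had only 2, 1 and 4 reads in WT DMSO. Their upf1 DMSO libraries held 25, 19 and 44 reads. In each, both upf1 libraries lay above both WT libraries, which the rule for naming CUTs requires. The calls for CUT185 and CUT916 relative to protein-coding genes were lost without upf1 DMSO replicate 2, and that for CUT916 also without upf1 DMSO replicate 1.

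Falls with loss of Upf1 were fewer than rises. CUT884, described above, differed between upf1 DMSO and WT DMSO by -0.88 ± 0.24 on the log2 scale (adjusted p = 0.019). The change relative to protein-coding genes was -1.19 ± 0.18. The call on the deposited scale was lost without WT DMSO replicate 1 or either upf1 DMSO library. Of 30 falls relative to protein-coding genes, the next largest above the median density were CUT112 (between GET2 and YER084W), CUT086 (between CNL1 and GGA1), CUT229 (between APE1 and YKL102C) and CUT585 (between YGL235W and the purine synthesis gene ADE57), with changes of -1.18 ± 0.30, -1.16 ± 0.39, -1.07 ± 0.27 and -0.99 ± 0.30. In each, both upf1 DMSO libraries lay below both WT DMSO libraries, which the rule for naming CUTs requires. Reads numbered from 11 to 32 in upf1 and 20 to 43 in WT. None passed on the deposited scale, and each call depended on single libraries. Those of CUT112 and CUT229 were lost without WT DMSO replicate 2 or upf1 DMSO replicate 2, that of CUT585 without either WT DMSO library or upf1 DMSO replicate 1, and that of CUT086 without WT DMSO replicate 1 or any 1 of the upf1 libraries.

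Under ANS, few CUTs passed the test for a difference between the strains. On the deposited scale 5 were higher in upf1 and 1 lower, against 2.69% and 0.216% of all features, with a median of 0.22 against 0.12. Those medians were 0.09 and -0.04 without WT ANS replicate 1 and 0.34 and 0.27 without WT ANS replicate 2. A total of 12 were higher and 1 lower relative to protein-coding genes, against 5.40% and 1.92%, with a median of 0.17 against 0.08. In DMSO the CUT medians were 0.30 on the deposited scale and 0.15 relative to protein-coding genes. Fewer calls under ANS are thus no measure of how many CUTs differed. At an unadjusted p under 0.05, 121 were higher and 22 lower on the deposited scale. The share of all features at that threshold was not counted, so nothing about CUTs is read from these numbers. The 5 became 39 without WT ANS replicate 2, 10 and 9 without WT DMSO replicates 2 and 1, 2 without either upf1 DMSO library and 0 without either upf1 ANS library. The 12 became 30 and 31 without WT DMSO replicates 1 and 2, 3 without either WT ANS library, 5 without either upf1 DMSO library and 0 without either upf1 ANS library. The count of 1 lower CUT became 0 on both scales without WT ANS replicate 1 or either upf1 ANS library, and relative to protein-coding genes also without WT ANS replicate 2, while 3 were lower there without either WT DMSO library.

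CUT649 (233 nt, chromosome VIII, between the kinase gene KIC1 and SBE22) was higher in upf1 with and without ANS. With DMSO its densities were 0.0246 and 0.0237 in WT against 0.0646 and 0.0699 in upf1, and with ANS 0.0479 and 0.0516 against 0.131 and 0.116. No groups overlapped. The upf1 change was 1.36 ± 0.19 in DMSO and 1.25 ± 0.19 under ANS (adjusted p = 0.00037 and 0.018), and the second was lost without either upf1 ANS library, and relative to protein-coding genes also without WT ANS replicate 2. The other higher CUTs above median abundance were CUT591, CUT751 and CUT415, with changes of 1.28 ± 0.28, 1.27 ± 0.25 and 1.07 ± 0.21. Each of these calls was lost without WT ANS replicate 1 or any 1 of the upf1 libraries.

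The CUT that was lower in upf1 under ANS was CUT229 (537 nt, chromosome XI, between the vacuolar aminopeptidase gene APE1 and YKL102C). With DMSO it had 0.016 and 0.0205 in WT against 0.0127 and 0.0065 in upf1, and ANS raised it to 0.14 and 0.217 in WT but to 0.0518 and 0.0596 in upf1. The upf1 change under ANS was -1.59 ± 0.30 (adjusted p = 0.028), and the call was lost without any 1 of the WT ANS or upf1 ANS libraries. Over the 539 CUTs with 50 or more reads, the upf1 changes in DMSO and under ANS, which share no library, had a Pearson r of 0.48 and a Spearman rho of 0.46 relative to protein-coding genes. Of the 167 CUTs higher in DMSO and the 12 higher under ANS on that scale, 8 were the same, 4.79% and 66.7% of each list, where 1.34% and 18.6% of all tested CUTs were higher under ANS and in DMSO. The same overlap over all features was not counted.

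The interaction tests whether the response to ANS differs between upf1 and WT. On the deposited scale it was lower in upf1 for 31 CUTs and higher for 1, against 8.36% and 0.190% of all features, with a median of -0.15 against -0.23. Without WT ANS replicate 2 these medians were -0.06 and -0.09, without WT DMSO replicate 1 -0.07 and -0.22, without WT DMSO replicate 2 -0.24 and -0.25, without WT ANS replicate 1 -0.30 and -0.39, and at 5 times the pseudocount -0.03 and -0.13. It was lower relative to protein-coding genes for 34 and higher for 4, against 10.4% and 0.717%. XUTs were called lower in 251 of 1603 and SUTs in 188 of 809 cases on the deposited scale. The CUTs with the most negative values had WT DMSO as their lowest group, as given above for CUT526, CUT388 and CUT639. A low WT DMSO level itself makes the interaction more negative, so this pattern follows in part from how they were picked. The interaction of CUT526 was -2.41 ± 0.38 on the deposited scale (adjusted p = 0.010) and that of CUT639 -2.28 ± 0.34 (adjusted p = 0.0089).

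These counts depended on single libraries. The 31 became 0 without upf1 DMSO replicate 1 or upf1 ANS replicate 2, 7 without upf1 ANS replicate 1, 11 without upf1 DMSO replicate 2, 10 without WT ANS replicate 2, 19 without WT DMSO replicate 1 and 48 without WT ANS replicate 1. The 34 became 4 and 6 without upf1 ANS replicates 1 and 2, 9 and 6 without upf1 DMSO replicates 1 and 2, 11 and 13 without WT ANS replicates 1 and 2, and 73 without WT DMSO replicate 2, relative to protein-coding genes. The 1 higher CUT on the deposited scale was CUT789, with 7 reads, and 10 were higher without WT ANS replicate 1, 5 without WT ANS replicate 2 and 0 without any 1 of the upf1 libraries. The 4 higher relative to protein-coding genes became 7 without WT DMSO replicate 1, 1 and 2 without upf1 DMSO replicates 1 and 2, and 0 without either upf1 ANS library. CUT388 and CUT639 kept their calls relative to protein-coding genes without any 1 library, and CUT526 did not.

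Some CUTs changed with the gene listed after them. For CUT526 with ARO10, CUT641 with ARG4, CUT628 with TDH3 and CUT894 with SSE1 the values are given above. SDH6, the gene before CUT526, rose as well. Other named CUTs went apart from the gene after them, namely CUT480 and ARF2, CUT015 and GIP1, CUT314 and CAF40, and CUT884 and RPL1A. Over the 539 CUTs with 50 or more reads, the ANS change in WT relative to protein-coding genes had a Spearman rho of 0.33 with that of the protein-coding gene after the CUT in the table, and of 0.15 with that of the gene before it (n = 534). In upf1 these values were 0.28 and 0.07. For CUT436 to CUT925, rho with a following gene on the minus strand was 0.64 in WT and 0.72 in upf1 (n = 68), and with a preceding gene on the plus strand -0.04 and -0.08 (n = 176). Between these lay following genes on the plus strand, with 0.33 and 0.23 (n = 203), and preceding genes on the minus strand, with 0.29 and 0.28 (n = 91). For CUT001 to CUT435, rho with a following gene on the plus strand was 0.42 in WT and 0.30 in upf1 (n = 144), and with a following gene on the minus strand 0.06 and 0.01 (n = 124). With preceding genes it was 0.27 and 0.33 on the plus strand (n = 47) and 0.18 and 0.03 on the minus strand (n = 220).

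These correlations are across CUTs that share libraries, and the strand and distance of the CUTs from the genes were not used here. CUT268 and CUT267 show how neighbours can part. CUT268 (769 nt) lies between PDR8 and BOP2 on chromosome XII and had WT densities of 0.00124 and 0.00359 with DMSO and 0.0415 and 0.038 with ANS, and upf1 densities of 0.024 and 0.0242 with DMSO and 0.0499 and 0.0546 with ANS. CUT267, on the other side of PDR8, was equally low in both strains in DMSO. With DMSO PDR8 had 0.104 and 0.116 in WT against 0.35 and 0.317 in upf1, as for CUT268 with the upf1 libraries above the WT libraries.

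**Figure D5:**
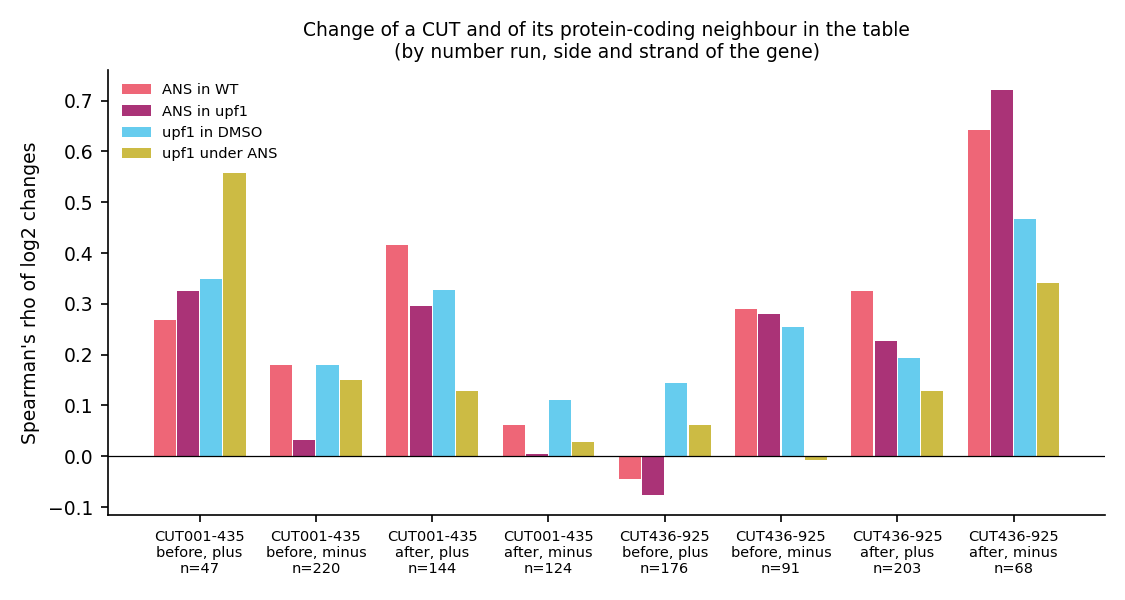
Spearman's rho (y axis) between the log2 change of a CUT and that of the protein-coding gene before or after it in the table, relative to protein-coding genes, by number run of the CUT and strand of the gene, for 4 comparisons. The bars for CUT436 to CUT925 with a following minus-strand gene reach 0.64 and 0.72 for ANS, and those with a preceding plus-strand gene lie near 0.

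RNA of genes for early termination and decay was measured in the same libraries, while their proteins were not measured. All 35 genes of the decay list rose with ANS on the deposited scale in both strains, against the 90.2% and 88.7% of all features given above. The 35 include NAM7, which is deleted in upf1, and the other 34 rose in both strains as well. On the other scale 14 rose and 6 fell in WT relative to protein-coding genes, where 35.8% and 19.3% of all features did, and 17 rose and 1 fell in upf1, where 17.4% and 18.3% did. The list's medians were 0.13 and 0.22, against 0.28 and 0.02 over all features. The list holds protein-coding genes only, and over all tested protein-coding genes the medians were 0.07 and -0.02. Of those genes 33.6% rose and 29.9% fell in WT, and 24.3% and 27.2% in upf1. Of the 13 exosome genes and cofactors 4 rose relative to protein-coding genes in WT and 7 in upf1, and none fell. RRP6 had 0.27 and 0.312 in WT DMSO and 0.937 and 1.17 in WT ANS, a rise of 1.84 on the deposited scale that came to 0.15 relative to protein-coding genes (adjusted p = 0.24).

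Within early termination, NRD1 encodes an RNA-binding subunit of the Nrd1-Nab3-Sen1 complex. It rose from 0.237 and 0.243 to 1.2 and 1.69 with ANS in WT. In upf1 it went from 0.246 and 0.246 to 1.5 and 1.57. Relative to protein-coding genes NRD1 rose by 0.86 in WT and 1.15 in upf1 (adjusted p = 0.00032 and 0.00019). Its partner NAB3 fell by 0.59 in WT on that scale, although it rose by 1.09 on the deposited scale, as did the helicase gene SEN1, with -0.26 and 1.42. In TRAMP, the zinc-knuckle subunit gene AIR2 rose by 0.96 and the helicase gene MTR4 fell by 0.41 relative to protein-coding genes in WT, while on the deposited scale both rose, by 2.63 and 1.29. XRN1 had 1.01 and 1.03 in WT DMSO and 1.37 and 1.79 in WT ANS, a rise of 0.62 on the deposited scale and a fall relative to protein-coding genes (-1.08, adjusted p = 4.5e-05).

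Loss of Upf1 moved few of these genes on the deposited scale, where 31.6% of all features were higher and 0.613% lower in DMSO. In DMSO the termination factor gene PCF11 rose by 0.66 and the deleted NAM7 fell, and under ANS NAM7 alone fell. In DMSO, with protein-coding genes set level, 1 gene rose and 21 fell, the deleted NAM7 among the falls, against 30.9% and 16.4% of all features. Of protein-coding genes alone, 21.7% rose and 29.6% fell. Medians were -0.30 over the list, 0.14 over all features and -0.13 over protein-coding genes. Under ANS 0 rose and 3 fell (NAM7, TRF5 and MTR4), against 5.40% and 1.92% of all features and 4.98% and 3.61% of protein-coding genes.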

How the data were processed

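The authors deposited normalized densities (signal) for 11966 features in 8 libraries, and the submitters' processing notes name Trim Galore, HISAT2 2.2.0, featureCounts 2.0.0, DESeq2 and build R64 without their roles. The scaling basis and the treatment of reads in overlapping features are not given in the sources used here. For 100% of the 11954 features above 0, a length between 20 and 20000 nt and 1 factor for each library gave whole reads (tolerance 1e-05 reads). The factors equalled inverse size factors of 76 snoRNAs to within a ratio of 0.996 to 1.00. Reads serve for depth. Their precision is that of counting only. Spike-in RNA was not analysed here.

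The test was limma's (version 3.58.1, R 4.3.3), run on log2 of the density plus a pseudocount of 0.003397, which is percentile 5 of the values above 0. Fold changes of low features are understated on that scale. Features with a mean at or above the pseudocount were fitted together (11579, with 387 left out, among them 27 of the 925 CUTs), with 1 mean for each of the 4 groups and a variance trend, and adjusted by Benjamini and Hochberg at 0.05 for each comparison. The second scale multiplies each library by a factor. It sets the median of the protein-coding genes, each over its own geometric mean, to 1, using those of the 5972 with a density above 0 in all libraries. The median fitted change of tested protein-coding genes can still differ from 0. It was -0.13 for upf1 in DMSO and 0.07 for ANS in WT. The size of change that can be called at the median of 60 reads per CUT over the 8 libraries was not tested. A feature without a call may therefore still have changed.

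Named CUTs are, for each comparison and scale, up to 5 with the largest rise and 5 with the largest fall past the threshold that lie above the median density and whose groups do not overlap, with the 8 most abundant and the 3 nearest the median. Density in this rule is the mean of all 8 libraries, so a rise itself helps a CUT to pass. The decay list holds 35 genes, taken from general knowledge. Members, lists and rules were chosen with earlier results of these data known. Alternatives were other pseudocounts, filters, libraries, a replicate block, no variance trend and only the libraries of a comparison, and, added after seeing the data, the recovered reads with precision weights and a minimum of 10 reads.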

Additional observations from a re-analysis of the deposited data

Results flagged for a closer look

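A response to ANS that differed between upf1 and WT marked the following CUTs, by the interaction test of limma past adjusted p 0.05. On the deposited scale the log2 differences (upf1 minus WT) were -3.11 for CUT574, -2.41 for CUT526, -2.39 for CUT388, -2.28 for CUT639 and -2.01 for CUT490. Relative to protein-coding genes they were -3.61 for CUT574, -2.58 for CUT388, -2.28 for CUT526, -2.16 for CUT639 and -2.12 for CUT268. In these CUTs WT DMSO was the lowest group, which picking by a negative difference favours. CUT574 had no read and CUT388 only 2 reads in WT DMSO, so their values depend on the pseudocount and are no measure of fold, and the call for CUT574 was lost on both scales with whole reads and precision weights. The differences in the other direction were 1.24 for CUT207 (between LSM1 and MTC1) and 1.07 for CUT884, both relative to protein-coding genes. There the call for CUT207 was lost without any 1 library other than WT DMSO replicate 1, and CUT884 without any 1 other than WT DMSO replicate 2. The 5 calls on the deposited scale were all lost without upf1 DMSO replicate 1 or upf1 ANS replicate 2. Relative to protein-coding genes CUT574, CUT388 and CUT639 kept their calls without any 1 library, and CUT526 and CUT268 lost theirs without WT ANS replicate 1 or any 1 of the upf1 libraries.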

How the results depend on the processing

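Of 75 values for named CUTs, 1255 alternative values kept the direction, and 1087 of them also the side of the threshold, while 168 lost it. The replicate numbers did not pair the libraries, with correlations of deviations between same-numbered libraries from -0.05 to 0.17. With the number as a replicate block 726 CUTs rose with ANS in WT (712 without it), 167 with loss of Upf1 in DMSO (164), and 2 were lower in upf1 under ANS (3 relative to protein-coding genes, 1 without the block on either scale). No other count of CUTs moved by more than 1.5 times with the block. Below, counts are of CUTs, and the cause of the changes was not tested unless fewer CUTs were tested.

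Without 1 library, the counts ranged as follows on the deposited scale: 639 to 741 higher and 3 to 10 lower with ANS in WT, 609 to 740 and 0 to 4 with ANS in upf1, 97 to 195 and 2 to 5 for upf1 in DMSO, 0 to 39 and 0 to 1 for upf1 under ANS, and 0 to 10 and 0 to 48 for the interaction. Relative to protein-coding genes the ranges were 129 to 261 and 67 to 88, 34 to 124 and 20 to 62, 101 to 217 and 13 to 31, 0 to 31 and 0 to 3, and 0 to 7 and 4 to 73.

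A filter at 5 times the pseudocount left 536 CUTs, of which 471 rose with ANS in WT and 479 in upf1, while 1 fell with loss of Upf1 in DMSO, 2 were lower in upf1 under ANS (3 relative to protein-coding genes) and 0 were higher in the interaction. With 5 times the pseudocount 0 fell with loss of Upf1 in DMSO, 38 were higher and 3 lower under ANS (19 and 4 relative to protein-coding genes), and the interaction had 0 higher and 10 lower. On the deposited scale it also lowered the median CUT change to 0.85 with ANS in upf1, 0.13 for upf1 in DMSO and 0.15 under ANS (1.08, 0.19 and 0.10 over all features), and relative to protein-coding genes to 0.07 for upf1 in DMSO and 0.11 under ANS (0.09 and 0.06). Dividing the pseudocount by 5 gave 3 higher and 0 lower for upf1 under ANS and 2 higher for the interaction. Without the variance trend 8 were higher and 2 lower for upf1 under ANS (2 lower relative to protein-coding genes), and the interaction had 2 higher, or 7 relative to protein-coding genes. In the 4 libraries of a comparison alone, 4 fell with loss of Upf1 in DMSO (13 relative to protein-coding genes), and 21 were higher and 2 lower under ANS (2 lower relative to protein-coding genes). Whole reads with precision weights, chosen after seeing the data, gave 1 fall with ANS in either strain, 23 higher and 2 lower for upf1 under ANS, and 0 higher for the interaction. Relative to protein-coding genes they gave 135 rises with ANS in WT, 110 rises and 18 falls with loss of Upf1 in DMSO, 28 higher and 2 lower under ANS, and 2 higher and 20 lower for the interaction. A minimum of 10 reads in a library, also chosen after seeing the data, left 620 CUTs, with 16 higher and 2 lower for upf1 under ANS (3 lower relative to protein-coding genes) and 0 higher for the interaction.

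Rescaling on protein-coding genes changed the counts for the decay list from 35 higher and 0 lower to 14 and 6 with ANS in WT and to 17 and 1 in upf1, and from 1 lower to 21 in DMSO and 3 under ANS for upf1. The CUT level in WT ANS was 5.66% of the protein-coding median over CUTs at or above the pseudocount. As a ratio of sums it was 0.526%, 0.693%, 0.678% and 0.838% in WT (DMSO, then ANS) and upf1 (DMSO, then ANS). With a median of 60 reads per CUT over 8 libraries, depth limits what can be called for most CUTs.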
